A study of Rattus norvegicus with 12 samples.

Results

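The nuclear-encoded genes of oxidative phosphorylation were examined in rat liver as 96 probe sets of an Affymetrix rat expression array, where a probe set is a group of short probes aimed at one transcript. A probe set was taken when its 1 gene symbol in the platform annotation began with Nduf (complex I), Uqcr (complex III), Cox4, Cox5, Cox6, Cox7 or Cox8 (complex IV) or Atp5 (complex V), or was Sdha, Sdhb, Sdhc or Sdhd (complex II). The symbols alone chose them, and the 96 stand for 86 of the 14217 genes named by a single symbol on the array, which holds 31042 probe sets besides the manufacturer's controls. The prefixes also took 7 probe sets of complex I assembly factors (Ndufaf genes), the ATP synthase inhibitor Atp5if1 and the pseudogene Cox6c-ps1, and 7 probe sets that list several symbols were left out. Counts by complex follow the prefixes, so Ndufa4, now placed in complex IV, is counted in complex I.

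Liver RNA came from 12 male Sprague Dawley rats, 9 weeks old, with 1 array per rat and 4 arrays per diet. The control rats ate a purified casein and corn starch diet, the low group ate the same diet with 0.1% wakame powder and the high group the same diet with 1%, each for 28 days. Wakame is a brown seaweed eaten as food, and the series' title names its effect on gene expression in the liver as the question. The design text gives 6 rats per diet and 3 rats per cage. The labels do not say which rats shared a cage, so a difference between cages cannot be told apart from one between diets.

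Oxidative phosphorylation is carried out by 5 protein complexes of the inner mitochondrial membrane. Complex I takes electrons from NADH and complex II from succinate, ubiquinone carries them to complex III, cytochrome c carries them to complex IV, and there they reduce oxygen. Protons pumped by complexes I, III and IV drive complex V, the ATP synthase. Liver uses this ATP for gluconeogenesis, urea synthesis and secretion of plasma proteins. Most subunits are encoded in the nucleus and a few core subunits in mitochondrial DNA. The 13 mitochondrially encoded genes matched no probe set by symbol and are not analysed here.

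The deposited values are on a log2 scale, inferred from their range of 3.15 to 14.6. Of the 96 probe sets, 60 had a standard deviation (SD) of at most 0.01 over the 12 arrays and are called flat and unmeasured, since it is unknown how such nearly constant values arose. The SD of 59 of them was below 1e-06, and 10 held the same value on every array. The other 36, 1 for each of 36 genes, are called varying. They made up 37.5% of these probe sets, against 10.4% of all 31042. Among probe sets with a mean of 10 or more the shares were 33 of 63 (52.4%) here and 70.3% of 1331 over the whole array. The varying set was taken by spread over all 12 arrays, which includes any spread between diets, so counts over the 36 say nothing of the 60.

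By complex, 12 of 39 complex I subunit probe sets varied, 1 of 7 of its assembly factors, 3 of 5 of complex II, 5 of 8 of complex III, 5 of 17 of complex IV and 10 of 20 of complex V. Complex IV held 6 genes whose products are known as isoforms of other tissues, and all 6 were flat below the arrays' median of 6.59: the heart and muscle isoforms Cox6a2 (6.31), Cox7a1 (6.45) and Cox8b (5.96), the lung isoform Cox4i2 (6.38) and the testis isoforms Cox6b2 (6.09) and Cox7b2 (6.20). Their widely expressed counterparts Cox6a1 (11.36) and Cox8a (11.98) were flat too, and Cox4i1 (11.61), Cox6b1 (11.33) and Cox7b (12.03) varied. Cox5a, a complex IV gene that is not among the 6, was flat at 7.55, under these counterparts. Of the 13 probe sets of striated muscle markers, 8 were likewise flat below the median, those of Acta1 (5.73), Ckm (6.22), Myh7, Tnnt3, Actn3 and Mb. The other 5, all annotated to the muscle myosin Myh1, varied with means of 7.87 to 11.03, above the median, and none passed in any comparison. The summed level of the muscle list, flat probe sets included, ran from 12.52 to 12.76 log2 in control, 12.06 to 13.00 with 0.1% and 12.20 to 12.92 with 1% wakame. The part of the muscle list in the results was not tested. A level of one probe set cannot be ranked against that of another, since their probes differ in sensitivity. In each complex the varying probe set with the highest mean value is shown on all arrays below, as a rule of choice and not as a ranking of expression.

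**Figure D1:**
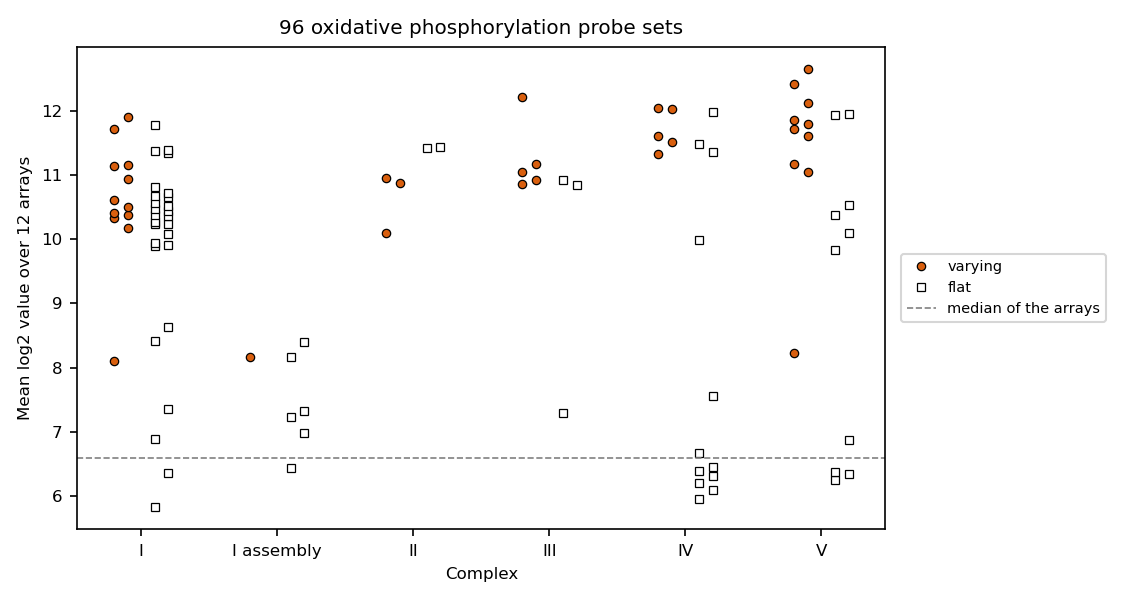
Mean log2 value over 12 arrays of each of the 96 probe sets, by complex (horizontal axis). Filled circles are the 36 varying and open squares the 60 flat probe sets, and the dashed line is the arrays' median of 6.59. Flat probe sets run from 5.82 to 11.98 and varying ones from 8.11 to 12.65.

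Of the 36 varying probe sets, 0 passed an adjusted p of 0.05 (limma, Benjamini-Hochberg over all 3240 varying probe sets) in 1% wakame against control, 0 in 0.1% against control and 0 in 1% against 0.1%, where 1.67%, 0.0617% and 0% of all 3240 passed. At an unadjusted p under 0.05 the counts were 2, 0 and 0 of 36, where the shares of all varying probe sets were 18.5%, 11.5% and 6.76%. The 2, Sdhd and Uqcrc2, both lay lower with 1% wakame, as did 10.1% of all varying probe sets at that threshold. The values below are therefore levels and differences that did not pass the test, which does not show that they are 0, and the 60 flat probe sets were not tested. In whole liver, fewer cells of a type and less RNA per cell cannot be told apart.

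The intervals give, for 1 probe set at a time, the differences its values allow. They are not adjusted for their number, so some of the 36 can miss the true difference. With 1% wakame the unadjusted 95% interval of the difference from control lay inside ±0.5 log2 for 35 of 36, and the median of the farther bounds was 0.24 log2. For 0.1% against control and 1% against 0.1% the same count was 35 and the median bound 0.22 and 0.23. The 1 probe set outside in each comparison was that of Ndufaf4. With 1% wakame against control the lower bounds of Ndufb1 and Atp5mk lay just inside, at −0.499 and −0.491. The difference between 1% wakame and control was larger than the SD within diets in 10 of 36 (27.8%), against 39.8% of all varying probe sets, and the counts were 3 and 2 for 0.1% against control and 1% against 0.1% (8.33% and 5.56%, against 29% and 22%).

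**Figure D2:**
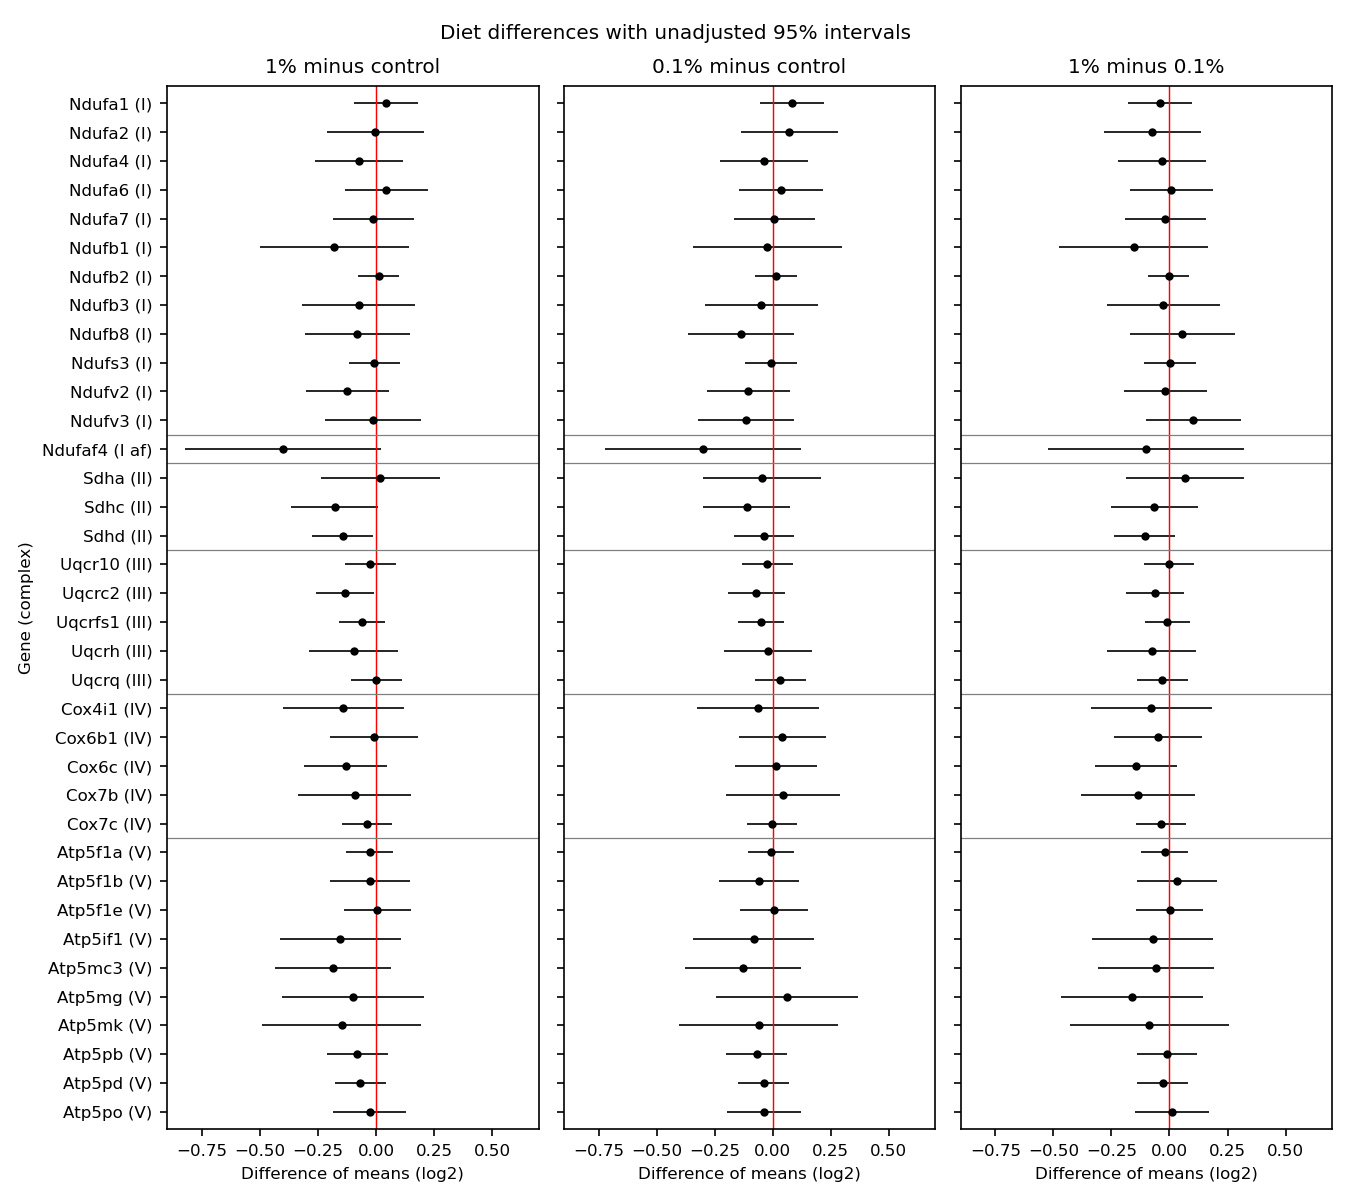
Difference of mean log2 values (horizontal axis) for each of the 36 varying probe sets in the 3 comparisons, with unadjusted 95% intervals from limma, grouped by complex. With 1% wakame against control the points run from −0.40 (Ndufaf4) to 0.04 (Ndufa1 and Ndufa6), and the intervals of Sdhd and Uqcrc2 alone leave out 0.

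Small differences leaned downward. With 1% wakame 30 of the 36 lay lower than in control by any size, with a median difference of −0.071 log2, where 55.1% of all 3240 lay lower with a median of −0.020. With 0.1% wakame 25 of 36 lay lower (median −0.038, against 55.9% and −0.018), and 28 of 36 lay lower with 1% than with 0.1% (median −0.032, against 51% and −0.0038). Without low 2 the count for 0.1% against control was 15 and its median 0.020, and without control 1 they were 18 and 0.0033. The first and second comparison share the control arrays, and the 36 probe sets come from the same 12 livers, so these counts are not independent of each other. The order of means from control through 0.1% to 1% was downward at both steps in 19 probe sets and upward at both in 2. The share over all 3240 was not computed for this order, and both steps share the 0.1% arrays, so these 2 counts cannot be judged. With the Gapdh 3-prime minus 5-prime difference, a sign of RNA integrity, as a covariate, 21 of 36 lay lower with 1% wakame than in control and the median was −0.019. That difference averaged 1.05 ± 0.01 log2 in control, 1.08 ± 0.10 with 0.1% and 1.21 ± 0.16 with 1% wakame (SD, n = 4), and its part in the result was not tested beyond this fit. The same difference of beta-actin averaged 2.31 ± 0.13, 2.25 ± 0.15 and 2.38 ± 0.07 in the same order, and was not used as a covariate. With each array centred on the median of its varying probe sets, 25 of 36 lay lower and the median was −0.048, and with quantile normalization 24 and −0.044.

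The mean level of the 36 was 11.15, 11.08, 10.94 and 11.07 log2 in control rats 1 to 4, 11.00, 10.90, 11.12 and 11.08 with 0.1% wakame, and 11.05, 10.92, 10.92 and 11.05 with 1%. All 3 diets overlapped. The SD of the 4 rats was 0.086 in control, 0.10 with 0.1% and 0.073 with 1%, and the difference of means was −0.075 between 1% wakame and control, −0.036 between 0.1% and control and −0.040 between 1% and 0.1%. The median SD within diets was 0.11 log2 for the 36, 0.21 for all varying probe sets and 0.17 for the 936 varying probe sets with a mean of 10 or more.

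In several livers most of the 36 stood on the same side. In control 1, 35 of 36 lay above their own median over the 12 arrays, and in low 3, 31 of 36 did. In control 3, low 2, high 3 and high 2 the counts were 3, 2, 1 and 6. The other arrays had 28 (control 2), 26 (control 4), 13 (low 1), 26 (low 4), 22 (high 1) and 23 (high 4). Over all 3240 varying probe sets the share above the median lay between 44.0% and 54.1% on every array, and over the 936 brighter ones between 41.3% and 53.3%. Each diet thus had a liver with 3 or fewer above, while counts over 30 occurred in control 1 and low 3 only and the highest with 1% wakame was 23. The 4 livers with low counts had Gapdh differences of 1.05, 1.07, 1.17 and 1.42 in the order control 3, low 2, high 3 and high 2, and control 1 and low 3, with 35 and 31 above, had 1.07 and 0.96, the latter the lowest of the 12 arrays. The 3-prime minus 5-prime difference of beta-actin ordered them otherwise. It was 2.22, 2.07, 2.40 and 2.28 in the same 4 livers, and 2.21 and 2.43 in control 1 and low 3. The part of RNA integrity in these counts was not tested. By complex, in control 1 all 12 varying complex I subunits, all 5 of complex III, all 5 of complex IV and all 10 of complex V lay above their medians, with 2 of 3 of complex II, and in high 3 the only one above was 1 member of complex V. In high 1 the complexes differed, with 11 of 12 of complex I above, 2 of 3 of complex II, 0 of 5 of complex III, 3 of 5 of complex IV and 5 of 10 of complex V. This way of counting was chosen after the values were seen, and the 36 values of a liver share 1 RNA sample and 1 array.

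**Figure D3:**
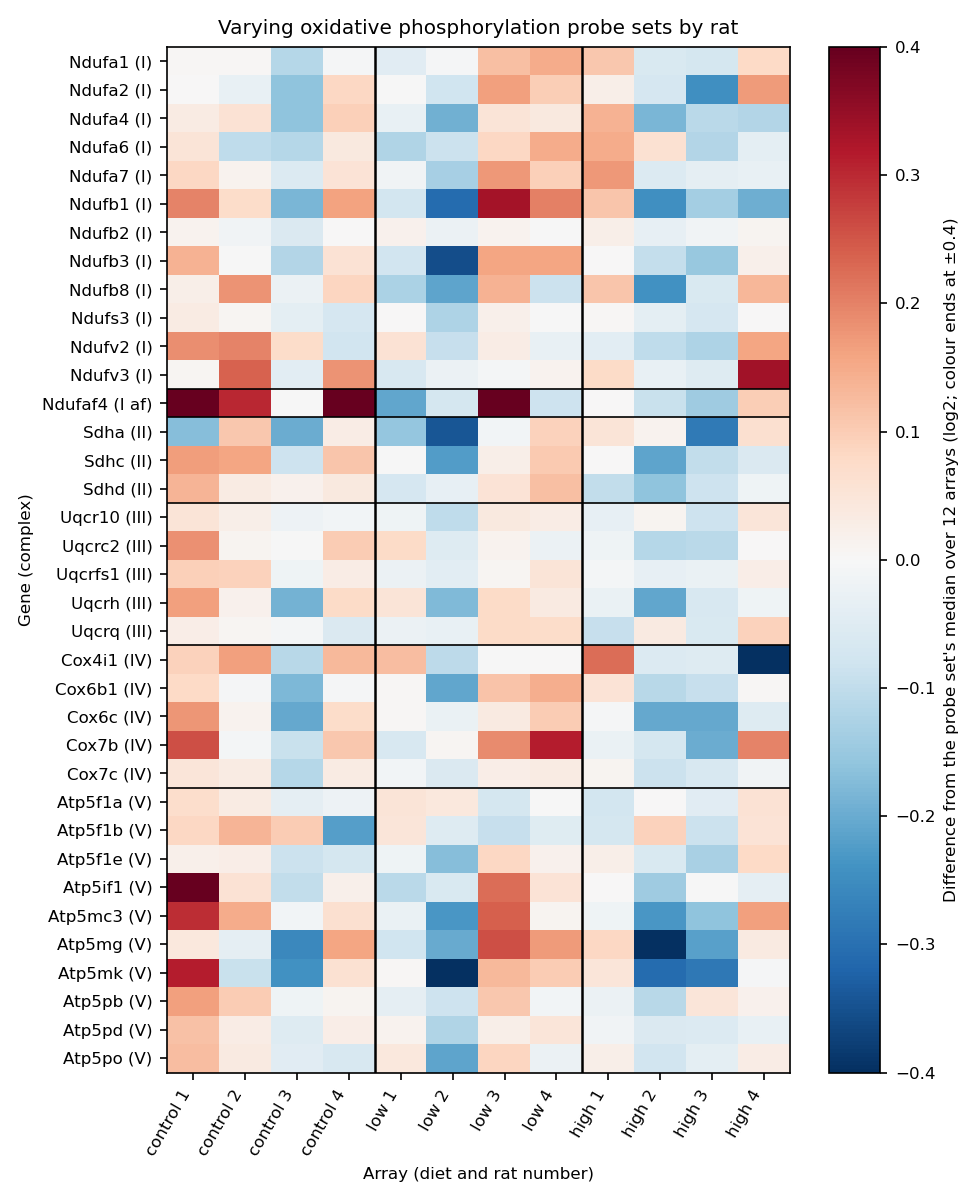
Each of the 36 varying probe sets (rows, grouped by complex) on each of the 12 arrays (columns, grouped by diet), coloured by the difference from its median over the arrays in log2. Columns control 1 and low 3 are mostly red (35 and 31 of 36 above the median) and control 3, low 2 and high 3 mostly blue (3, 2 and 1 of 36).

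**Figure D4:**
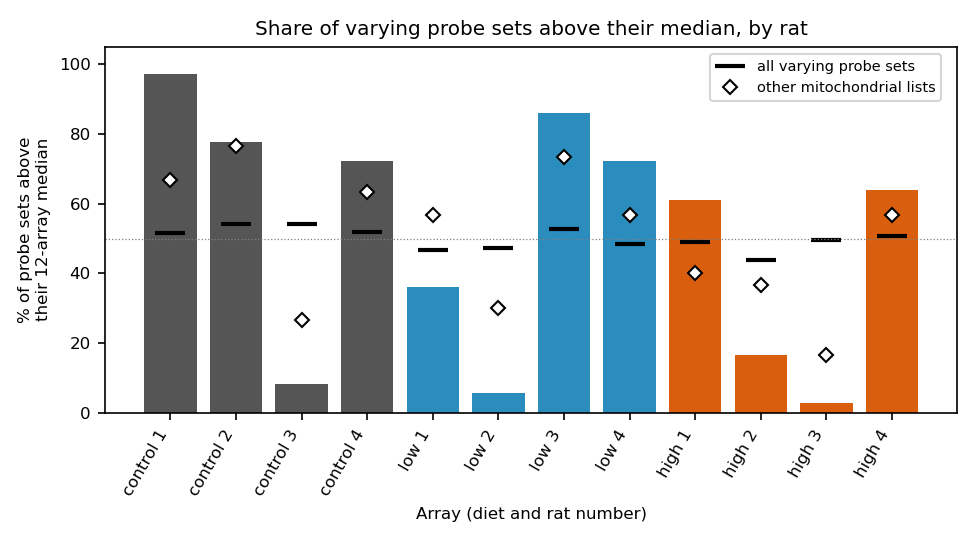
Percent of probe sets above their own median over 12 arrays, by array, for the 36 varying oxidative phosphorylation probe sets (bars, coloured by diet), all 3240 varying probe sets (lines) and the 30 varying probe sets of the other mitochondrial lists (diamonds). The bars run from 2.78% (high 3) to 97.2% (control 1), while the lines stay between 44.0% and 54.1%.

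In complex I, whose matrix arm holds the NADH and iron-sulfur sites, 9 of 12 varying subunits lay lower with 1% wakame than in control (median −0.012) and 7 of 12 with 0.1% (median −0.016). Ndufv2 and Ndufs3, core subunits of the matrix arm, were at −0.12 and −0.0070 with 1% wakame and −0.11 and −0.0089 with 0.1%. Ndufv3, an accessory subunit of that arm, was at −0.013 with 1%. The accessory subunits of the membrane arm Ndufb1, Ndufb3 and Ndufb8 were at −0.18, −0.075 and −0.081 with 1%, and Ndufb2 at 0.011 with an interval of −0.079 to 0.10. Ndufa1, Ndufa2, Ndufa6 and Ndufa7 lay between −0.012 and 0.044. Ndufa4 was first described in complex I, is now placed in complex IV and is counted by its prefix among the 12 here. It read 11.97, 11.99, 11.78 and 12.03 in control, 11.91, 11.75, 11.99 and 11.98 with 0.1% and 12.08, 11.76, 11.83 and 11.82 with 1% wakame. The high and low values of Ndufa4 were spread over the diets, and the difference of 1% from control was −0.073 ± 0.085 (SE, n = 4 per diet, limma adjusted p = 0.716). It was −0.14 without high 1, −0.13 without control 3, −0.043 without control 4, −0.034 without high 2 and −0.044 with the Gapdh covariate.

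Ndufaf4, an assembly factor that helps to build complex I and is not a subunit of it, had the widest spread of the 36 and the largest difference from control with either amount of wakame. Its values were 8.72, 8.34, 8.03 and 8.53 in control, 7.83, 7.96, 8.67 and 7.95 with 0.1% and 8.04, 7.95, 7.89 and 8.13 with 1% wakame. Both wakame groups lay at or under 8.13 in 7 of 8 rats, but control 3 lay among them and low 3 among the controls. The means were 8.41 ± 0.29, 8.10 ± 0.38 and 8.00 ± 0.11 (SD, n = 4). The difference from control was −0.40 ± 0.19 with 1% (SE, limma adjusted p = 0.290) and −0.30 ± 0.19 with 0.1% (adjusted p = 0.604). With the Gapdh covariate the former was −0.22, and the latter was −0.49 without low 3 and −0.20 without control 1. The other 6 assembly factor probe sets, of Ndufaf1, Ndufaf3, Ndufaf5, Ndufaf7 and Ndufaf8, were flat.

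Complex II is succinate dehydrogenase, shared with the citric acid cycle: Sdha carries the flavin, Sdhb the iron-sulfur clusters, and Sdhc and Sdhd anchor both in the membrane. Sdhd read 10.24, 10.14, 10.12 and 10.14 in control, 10.04, 10.07, 10.16 and 10.22 with 0.1% and 10.01, 9.95, 10.02 and 10.09 with 1% wakame. Every rat on 1% wakame lay below every control, and the 0.1% group overlapped both. This was the 1 of 36 whose groups did not overlap in this comparison, where 11.3% of all varying probe sets did not overlap and 6.05% lay wholly lower, and 0 of 36 were apart in 0.1% against control and in 1% against 0.1% (5.86% and 3.77% of all). The difference was −0.14 ± 0.06 (SE, unadjusted p = 0.0337, limma adjusted p = 0.235). It was −0.087 with the Gapdh covariate (limma adjusted p = 0.705) and −0.10 with quantile normalization (limma adjusted p = 0.414), and the unadjusted p was above 0.05 in both. A second probe set of Sdhd, at 11.43, was flat, so the value rests on 1 of 2 probe sets.

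Sdhc, the other anchor, read 11.13, 11.12, 10.88 and 11.08 in control, 10.96, 10.74, 10.99 and 11.07 with 0.1% and 10.97, 10.76, 10.87 and 10.91 with 1% wakame. Control 3 lay among the rats on 1%, and the difference was −0.18 ± 0.08 (SE, limma adjusted p = 0.290). Sdha was at 0.019, with an interval of −0.24 to 0.27, and Sdhb was flat.

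Complex III passes electrons from ubiquinol to cytochrome c. Uqcrc2, a core protein of its matrix side, read 11.35, 11.18, 11.17 and 11.27 in control, 11.25, 11.12, 11.18 and 11.15 with 0.1% and 11.15, 11.06, 11.06 and 11.17 with 1% wakame. The lowest control and the highest rat on 1% were nearly level, at 11.17 each, and the groups overlapped. The difference of 1% from control was −0.13 ± 0.06 (SE, unadjusted p = 0.0385, limma adjusted p = 0.243), and the second probe set of Uqcrc2 was flat at 7.30. Here too the unadjusted p was above 0.05 with quantile normalization, with median centring and with the Gapdh covariate, where the difference was −0.11, −0.11 and −0.12. Uqcrfs1, the Rieske iron-sulfur protein, was at −0.060, the hinge protein Uqcrh at −0.097 and Uqcr10 at −0.025. Uqcrq, a small subunit of the membrane part, read 12.23, 12.21, 12.20 and 12.14 in control, 12.18, 12.17, 12.28 and 12.28 with 0.1% and 12.11, 12.24, 12.14 and 12.30 with 1%. Its groups covered one another and its difference was 0.0016 with an interval of −0.11 to 0.11 (1% against control).

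Complex IV, cytochrome c oxidase, had 5 varying subunits, and all 5 lay lower with 1% wakame than in control (median −0.092) while 2 of 5 did with 0.1% (median 0.013). Cox6c, a small nuclear subunit, read 12.25, 12.09, 11.87 and 12.15 in control, 12.08, 12.05, 12.11 and 12.17 with 0.1% and 12.07, 11.87, 11.87 and 12.02 with 1% wakame. Control 3 was as low as high 2 and high 3, and the difference was −0.13 ± 0.08 (SE, limma adjusted p = 0.412). It was −0.20 without control 3 and −0.077 without control 1. Cox4i1, a large nuclear subunit that regulates the enzyme, was at −0.14, Cox7b at −0.092, Cox7c at −0.038 and Cox6b1 at −0.0078.

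In complex V, 9 of 10 varying members lay lower with 1% wakame (median −0.074) and 8 of 10 with 0.1% (median −0.050). Atp5f1b, the catalytic beta subunit, read 12.74, 12.79, 12.76 and 12.44 in control, 12.70, 12.60, 12.56 and 12.61 with 0.1% and 12.59, 12.75, 12.57 and 12.71 with 1% wakame. Control 4 stood below the other controls and below every rat on wakame. The difference of 1% from control was −0.028 ± 0.078 (SE, limma adjusted p = 0.910). It was −0.11 without control 4 and 0.0092 without control 2. The alpha subunit Atp5f1a was at −0.027 with an interval of −0.13 to 0.073, and Atp5f1e, the epsilon subunit, at 0.0057. The peripheral stalk subunits Atp5pb, Atp5pd and Atp5po were at −0.080, −0.069 and −0.027. The ring subunit Atp5mc3 was at −0.19 with an interval of −0.44 to 0.064, and the membrane subunits Atp5mk and Atp5mg were at −0.15 and −0.10. Atp5if1, which inhibits the enzyme when it would hydrolyse ATP, was at −0.15, and its 2 other probe sets were flat.

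**Figure D5:**
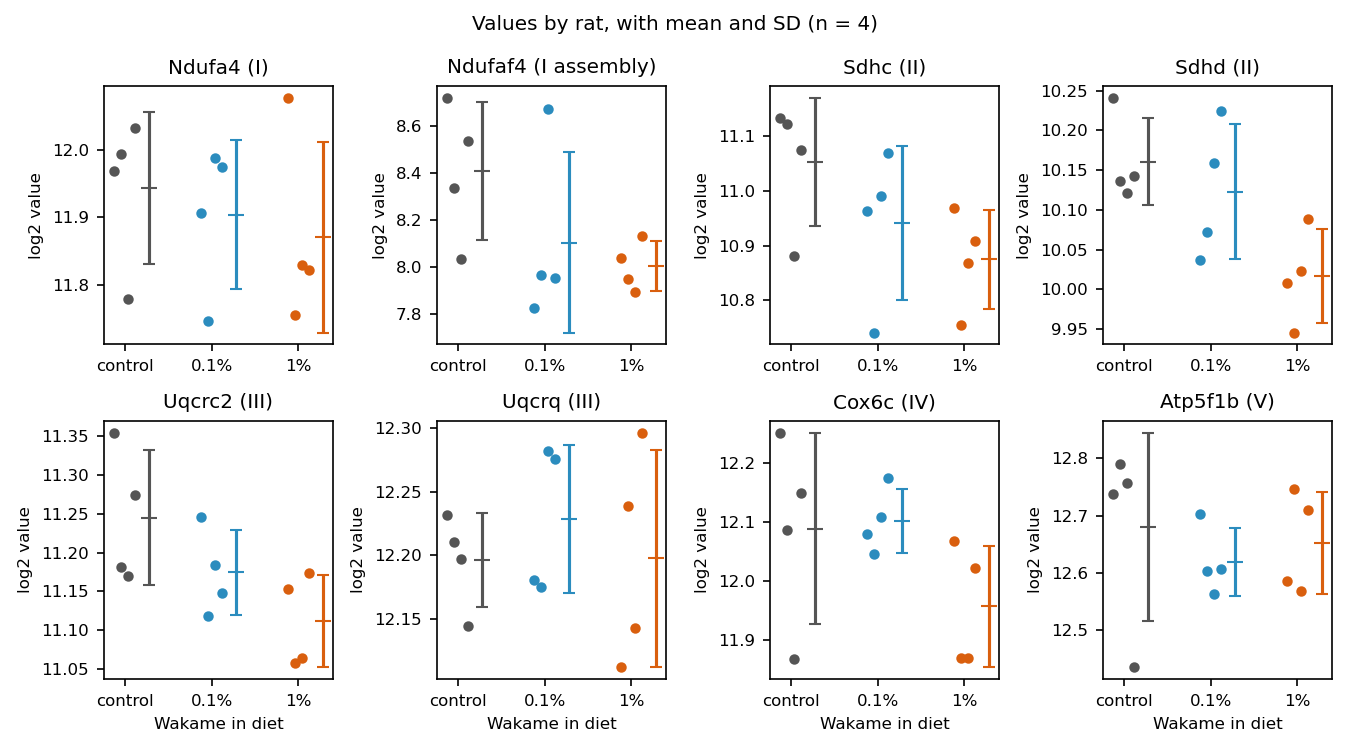
Log2 values of 8 varying probe sets by diet (4 rats each, points), with mean and SD beside them; the vertical axes do not start at 0 and differ between panels. Sdhd with 1% wakame (9.95 to 10.09) lies below control (10.12 to 10.24), and the other 7 overlap.

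Promoters were read for the same genes because their probe sets stood high or low together in several livers. RefSeq sequences of the 250 bases before the gene start (assembly GRCr8) were found for 78 of the 86 genes and 34 of the 36 with a varying probe set. They were searched on both strands for letters of factors known to act on respiratory chain genes: the consensus of NRF-1, a looser form of it that drops the outer bases and leaves 1 inner base free, CCGGAAG of ETS factors such as GABP, and AANATGGCG of YY1. The ETS letters were in 10 of the 34 (29.4%) and in 7.74% of all 27457 promoters of the table, the NRF-1 consensus in 0 of 34 (1.18% of all), its looser form in 4 of 34 (11.8%, against 4.17%), namely Ndufaf4, Ndufv3, Sdha and Atp5po, and the YY1 letters in 0 of 34 (1.45% of all). Over all 78 member genes, flat ones included, the ETS letters were in 21 (26.9%), the looser NRF-1 form in 12 (15.4%), the NRF-1 consensus in 2 (2.56%) and the YY1 letters in 3 (3.85%). Of the 34, 14 held at least 1 of the motifs. None of them held both the ETS letters and the looser NRF-1 form. The forms of the NRF-1 motif were settled after counts with other forms had been seen. A match describes letters only and is neither a bound site nor a cause. The sequences below belong to those members with values given on all 12 arrays that hold a match, which is in capitals. They are Sdhd (chr8:59850642-59850891, minus strand), Uqcrc2 (chr1:184598990-184599239, plus strand) and Uqcrq (chr10:38089979-38090228, minus strand) with ETS letters and Ndufaf4 (chr5:43401545-43401794, plus strand) with the looser NRF-1 form, each 5′ to 3′ toward the gene.
Sdhd: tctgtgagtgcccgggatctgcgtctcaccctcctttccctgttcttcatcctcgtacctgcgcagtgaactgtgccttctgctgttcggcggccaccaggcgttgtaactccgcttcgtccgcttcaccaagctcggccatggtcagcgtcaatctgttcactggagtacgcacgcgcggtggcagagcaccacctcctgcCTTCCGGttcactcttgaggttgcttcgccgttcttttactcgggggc
Uqcrc2: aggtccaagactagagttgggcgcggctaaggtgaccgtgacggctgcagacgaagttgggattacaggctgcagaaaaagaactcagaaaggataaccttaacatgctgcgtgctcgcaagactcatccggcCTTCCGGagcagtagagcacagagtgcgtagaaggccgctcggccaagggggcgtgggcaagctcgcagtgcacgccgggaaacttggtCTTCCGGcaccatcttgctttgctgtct
Uqcrq: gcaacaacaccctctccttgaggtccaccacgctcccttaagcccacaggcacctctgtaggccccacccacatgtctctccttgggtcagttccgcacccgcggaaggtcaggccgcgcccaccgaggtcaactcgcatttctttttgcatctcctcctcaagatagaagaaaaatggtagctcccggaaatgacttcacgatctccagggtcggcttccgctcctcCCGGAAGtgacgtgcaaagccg
Ndufaf4: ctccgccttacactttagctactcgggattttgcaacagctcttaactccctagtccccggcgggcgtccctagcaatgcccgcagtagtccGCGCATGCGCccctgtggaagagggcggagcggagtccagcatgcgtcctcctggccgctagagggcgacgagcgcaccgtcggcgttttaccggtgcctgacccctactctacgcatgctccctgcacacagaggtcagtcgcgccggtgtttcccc
Sdhd and Uqcrc2, with differences of −0.14 and −0.13 between 1% wakame and control, and Uqcrq, with 0.0016, all held the ETS letters, while no match was found in the windows of Sdhc, Ndufa4 and Atp5f1b. For Cox6c no promoter was found.

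Other mitochondrial genes gave no called probe set either. Of the 7 varying citric acid cycle and pyruvate dehydrogenase probe sets 6 lay lower with 1% wakame than in control and 0 passed. Dld, the lipoamide dehydrogenase of both, was at −0.28 ± 0.08 (SE, limma adjusted p = 0.120), Dlst at −0.34 and Pdhx at −0.24. Of the carriers and porins, all 5 varying probe sets lay lower and 0 passed, with the phosphate carrier Slc25a3 at −0.18, the ADP/ATP carrier Slc25a5 at −0.20, Vdac3 at −0.13 and the 2 probe sets of Vdac1 at −0.15 and −0.45. Of 8 assembly factors outside the rule 6 lay lower, Coa3 at −0.23 among them, and of 5 genes of ubiquinone and electron transfer flavoprotein 3 did. At an unadjusted limma p under 0.05 in 1% against control, 2 of 7, 3 of 5, 1 of 8 and 0 of 5 in these 4 lists lay lower. None lay higher at that threshold, while 2 of 5 varying probe sets of regulators did. Over all varying probe sets 18.5% passed it in either direction and 10.1% lay lower. Among regulators, Ppargc1a, the coactivator PGC-1alpha, varied in 1 of 3 probe sets at a mean of 6.17, under the arrays' median, and was at 0.26. Polg2 and Polg, of the mitochondrial DNA polymerase, were at 0.61 ± 0.24 (limma adjusted p = 0.211) and 0.40 with 1% and at 0.77 and −0.055 with 0.1%, and both Ssbp1 probe sets at −0.22 and −0.21 with 1%. Probe sets of Nrf1, Gabpa, Tfam and Esrra were flat. On the same arrays, 20, 23, 8 and 19 of the 30 varying probe sets of these lists lay above their median in control rats 1 to 4. The counts were 17, 9, 22 and 17 with 0.1% wakame and 12, 11, 5 and 17 with 1%. The highest was thus in control 2, and not in control 1 as for the 36.

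Markers of liver cell types did not pass in any comparison. Of 9 hepatocyte probe sets, the 4 of Alb, Ttr and Serpina1 were flat at 13.87 to 14.61, near the top of the scale. The other 5 varied, and 2 of them lay lower with 1% wakame than in control. Cyp2e1, a cytochrome P450, was at 0.67 with 1% and 0.90 with 0.1% against control (limma adjusted p = 0.338 and 0.370). Tat, tyrosine aminotransferase, was at −1.04 in 1% against control (limma adjusted p = 0.280) and −1.81 in 1% against 0.1% (limma adjusted p = 0.498), the latter with an unadjusted p under 0.05, as was Cyp2e1 with 0.1%. The summed hepatocyte level was 16.59 to 16.65 log2 in control, 16.63 to 16.79 with 0.1% and 16.62 to 16.73 with 1%. The sum includes the 4 flat probe sets, each higher than any of the 5 varying ones, so much of it is constant. The part of the hepatocyte level in the results was not tested. All 5 varying stellate cell and fibroblast probe sets of 10 lay higher with 1% wakame than in control, and 3 of them did with 0.1%. Among them Colec11 was at 0.21 with 1% and 0.22 with 0.1%, each with an unadjusted limma p under 0.05 (limma adjusted p = 0.243 and 0.393). The summed level, flat probe sets included, was 11.62 to 11.94 log2 in control, 11.60 to 11.97 with 0.1% and 11.72 to 12.04 with 1%. The part of these markers in the small downward lean was not tested. The 3 varying Kupffer cell probe sets lay lower in 1 case, and the 3 varying endothelial ones in 0. Both erythroid probe sets varied and lay higher, the 1 varying lymphocyte probe set lay lower, and those of cholangiocytes and adipocytes were flat.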

How the data were processed

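The authors deposited 1 table of log2 values, 1 column per array, with R 2.7.2 as the tool listed, per the submitters' processing notes. How background, normalization and probe summaries were handled is not given in the sources used here, and the range of the values is the basis for the log2 scale. No scanner files were used, no detection call stands behind a value, and precision is limited by the number of arrays. Per the labels' protocols, 100 ng of total RNA was copied from the 3-prime end of transcripts.

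After leaving out 57 control probe sets, limma 3.58.1 in R 4.3.3 fitted a mean per diet to the 12 arrays over the 3240 probe sets with an SD above 0.01 (eBayes with trend), and p-values were Benjamini-Hochberg adjusted over all 3240 with a threshold of 0.05. "Lower" is the sign of a difference of means. Gene symbols are those of the platform annotation. The members and lists, the SD limit and the tests were chosen with earlier results of these data known. Values on all 12 arrays were given for members with an unadjusted p under 0.05 and the varying probe set with the highest mean in each complex. Of the other lists up to 4 varying members with the smallest p could be named. The fit was checked on simulated data with shifts of several SD in independent noise. That check does not cover small differences or probe sets that move together. Other filters, normalizations, variance models, a replicate block, an RNA integrity covariate and fits with each array left out were tried.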

Additional observations from a re-analysis of the deposited data

Results flagged for a closer look

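Among the 108 groups of 4 arrays (36 varying probe sets by 3 diets), 8 had 1 array whose gap to its nearest neighbour, as a share of the group's range, was above Dixon's 95% critical value, where chance alone flags about 1 in 20 groups. In control these were Atp5f1b in control 4 (12.44, nearest 12.74), Cox7c in control 3 (11.41, nearest 11.56) and Ndufa1 in control 3 (11.59, nearest 11.69). With 0.1% wakame they were Ndufaf4 in low 3 (8.67, nearest 7.96), Ndufs3 in low 2 (10.28, nearest 10.40) and Uqcrh in low 2 (10.70, nearest 10.91). With 1% wakame they were Ndufa7 in high 1 (10.33, nearest 10.13) and Sdha in high 3 (10.67, nearest 10.96).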

How the results depend on the processing

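No oxidative phosphorylation probe set was called by limma in any of the 3 comparisons under any of the 11 alternatives or with any array left out. With an SD above 0.1, where 21 of them are tested, 19, 15 and 16 lay lower in 1% against control, 0.1% against control and 1% against 0.1%. Leaving out 1 array moved these counts to 24 to 33, 15 to 31 and 21 to 33 of 36. For 1% against control the median ran from −0.10 (without control 3) to −0.039 (without control 1), for 0.1% against control from −0.063 to 0.020, and for 1% against 0.1% from −0.070 (without low 2) to −0.0062 (without low 3). Over all probe sets, the 54 called in 1% against control became 9 with flat probe sets included, 28 with 2 diets in the fit, 4 with the Gapdh covariate and 26 with 1 probe set per gene, and 7 to 36 without an array. The 2 called in 0.1% against control became 5 with flat ones included, 0 with 2 diets, and 1 with quantile normalization and with median centring, and 0 to 3 without an array. In 1% against 0.1% 0 became 6 with flat ones included, and 0 to 1 without an array. With the replicate number as a block the 54, 2 and 0 became 12, 0 and 0. The labels do not say whether the numbers pair the rats, and no pairing was seen in the values. Deviations of same-numbered arrays correlated at −0.12 to 0.092, and 1 of 12 arrays matched its own number best. Differences changed sign for Atp5f1b (0.00014) and Uqcrq (−0.0024) in 1% against control with quantile normalization, and for Atp5f1b (−0.0041) and Ndufaf4 (0.054, from −0.10) in 1% against 0.1% with the Gapdh covariate. Without one array, the differences that changed sign ran from −0.11 to 0.0092 (Atp5f1b) and −0.031 to 0.030 (Uqcrq) in 1% against control, −0.060 to 0.067 (Cox6c) and −0.094 to 0.013 (Ndufa4) in 0.1% against control, and −0.10 to 0.0051 (Ndufa4) and −0.19 to 0.088 (Ndufaf4) in 1% against 0.1%. The cause of these changes was not tested.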
